A study of Jatropha curcas with 31 samples.

Results

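Chalcone synthase (CHS), 6'-deoxychalcone synthase and chalcone isomerase (CHI) were followed in seeds and leaves of Jatropha curcas through 5 contigs of the seed transcriptome. Their 22 probes were all the probes of contig16238 and contig19806 (CHS), contig19461 and contig13680 (6'-deoxychalcone synthase) and contig04004 (CHI), out of 57842 probes on 19838 contigs. The contigs were picked on differences between seed stages VI and I on these arrays, as the ends of each enzyme's list when ordered by that difference, while contig04004 was the only one listed for CHI. Differences between seed stages are therefore given as a description, and tests are given for leaf against seed and for toxic against non-toxic leaf.

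Cyanine-3 labelled RNA was measured on 31 one-colour Agilent arrays, 10 with leaf RNA and 21 with seed RNA. The leaf samples came from a toxic kind (n = 5) and a non-toxic kind (n = 5), and the plants, ages and growth of these leaves are not given in the sources used here. Code numbers in the leaf sample titles recur within each kind, and whether they mark the same plants is not given. By the paper, the seeds were open-pollinated seeds of a selected plant, so that the stages describe a single mother plant. Titles of some stage V and VI samples carry a year, which the other titles do not. The seeds comprised stage I (green-white, n = 3), II (green-half, n = 4), III (green-black, n = 3), IV (yellow, n = 3), V (brown, n = 4) and VI (dry, n = 4). The match of the label green-half to stage II was made by elimination. No treatment was applied to any group according to the labels.

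CHS joins a coumaroyl starter unit with malonyl units to give naringenin chalcone, the first step that is particular to flavonoids. Where a reductase of the aldo-keto family acts together with CHS, a chalcone lacking a hydroxyl group is made instead, and this joint activity is called 6'-deoxychalcone synthase. CHI closes the ring of the chalcone to a flavanone, from which flavonols, anthocyanins and the proanthocyanidins of seed coats are derived. The enzyme names here were given to contigs by sequence similarity, and contig19806 was also listed as a stilbene synthase, an enzyme of the same protein family that uses the same starter.

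Each array is 1 of 8 on a glass slide. Slides 1, 2 and 3 held 1 array of every stage and of each leaf kind, and slide 4, scanned in another year, held 4 leaf arrays and 1 array of each of stages II, V and VI. Arrays of 1 group correlated with a median r of 0.968 within slides 1 to 3 and of 0.906 between slide 4 and the others. Between 47.9% and 69.6% of probe spots per array were well above background. Of 7 photosynthesis contigs, 6 were higher and 1 (contig04560) was lower in leaf than in seed, and of 10 seed contigs, 1 was higher and 5 were lower in leaf (adjusted p under 0.05, limma). By the same choice of probe, 6420 of all 19838 contigs were higher and 6248 lower in leaf. The storage protein contig00303 had the widest difference of the 10 seed contigs, at 3.46 in leaf and 9.25 in seed, as means of log2 intensity. The seed contig that was higher in leaf, contig19165, stood at 10.18 in leaf and 9.56 in seed. Because whole organs were sampled, fewer cells of a type and less RNA per cell cannot be told apart.

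Probes lay every 250 bp along a contig and alternated in direction, so that most contigs were read on both strands. Of the 22 probes, 12 were well above background on every array of at least 1 group, 9 of the 11 antisense probes and 3 of the 11 sense probes. Contig16238 (1494 bp), contig19806 (814 bp), contig19461 (472 bp) and contig13680 (1312 bp) were brightest with antisense probes, whereas contig04004 (862 bp) was brightest at stage I and in leaf with the sense probe at position 500. Since contigs were assembled in either orientation, the direction of the bright probes does not say which strand is the messenger. No array was well above background at 4 probes, namely contig19806 probes 0 and 500, contig13680 probe 0 and contig04004 probe 750. None of the 22 probes held a saturated or imputed value, and each was a single spot.

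**Figure D1:**
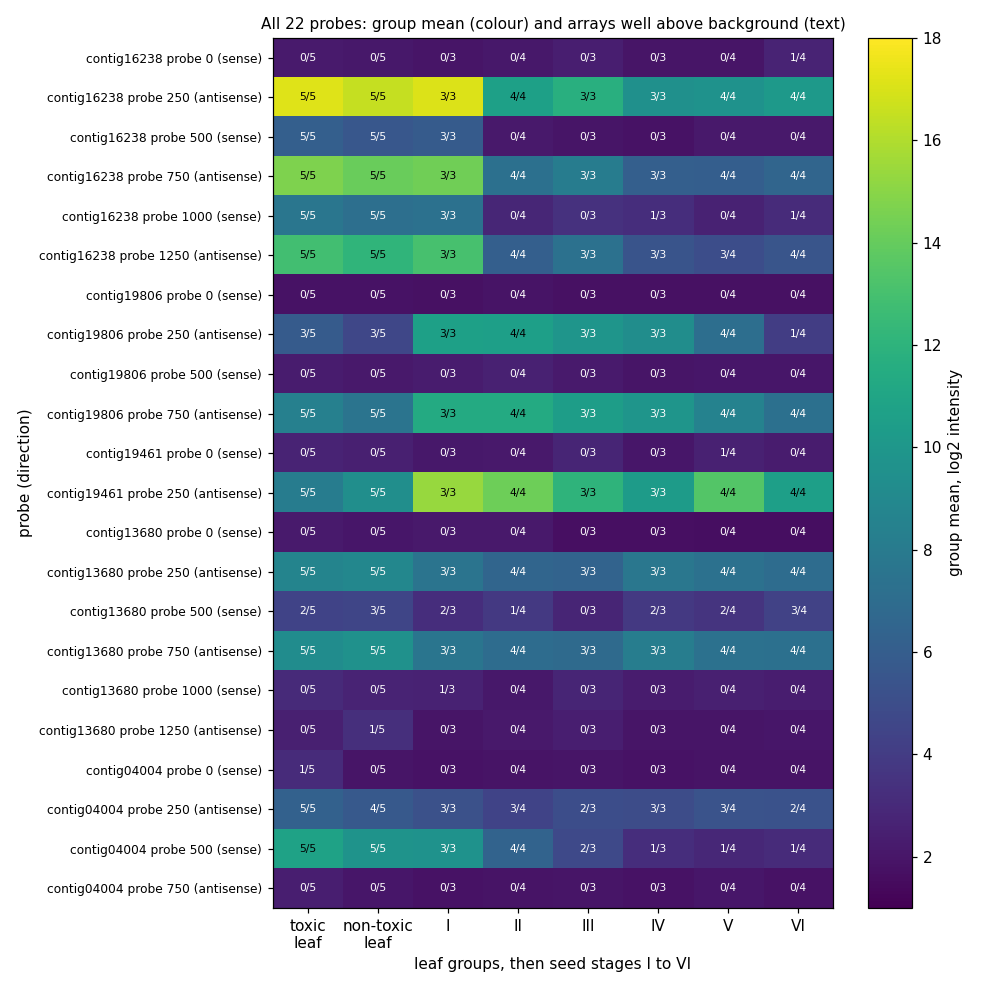
Group means of the 22 probes as log2 intensity (colour) in toxic leaf, non-toxic leaf and seed stages I to VI, with the number of arrays well above background out of all arrays of the group in each cell. Of the probes, 12 were well above background on every array of at least 1 group, and in contig16238 bright antisense rows alternate with dim sense rows.

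Each contig is given in full by its brightest probe, judged by the mean of the 21 seed arrays, with all levels as quantile-normalized log2 intensity. For contig04004 this rule gave probe 250, and probe 500, chosen after its values were seen, is given as well.

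Contig16238 was at its highest in leaf and in the youngest seeds. In toxic leaf, probe 250 read 17.02, 16.56, 16.28, 16.96 and 19.00, and in non-toxic leaf 16.15, 15.85, 15.72, 18.82 and 16.11. In seeds it read 17.41, 17.09 and 16.75 at stage I and 10.62, 10.75, 10.86 and 10.47 at stage II. Stage III gave 10.88, 12.64 and 11.61, stage IV 9.44, 9.42 and 9.77, stage V 9.56, 9.42, 10.17 and 9.46, and stage VI 10.15, 9.93, 10.87 and 9.44. Both leaf groups overlapped stage I, and every array of stages II to VI lay below every array of these 3 groups. Slide 4 lay 1.36 above the mean of slides 1 to 3 in toxic and 1.56 above it in non-toxic leaf. In the log2 table of the authors these offsets were -0.05 and 0.22. Most of the fall in seeds lay between stages I and II, where the mean was 6.41 lower at stage II (SE 0.59), while stage VI was 6.98 lower than stage I (SE 0.59). Stage III lay 1.03 above stage II (SE 0.59), and their nearest arrays read 10.88 and 10.86. The means of stages II, VI, V and IV followed each other with overlapping arrays. Probes 750 and 1250 also had their highest seed mean at stage I. At stage I, probes 750 and 1250 averaged 14.33 and 13.07, and over stages II to VI their means ran between 4.99 and 8.13. The sense probes 500 and 1000 averaged 5.90 and 7.34 at stage I, and on the 18 arrays of stages II to VI they were well above background on 0 and 2 arrays. The sense probe 0 did not have this course, with means of 1.97 at stage I and 2.66 at stage VI, and it was well above background on 1 of the 31 arrays.

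The second CHS contig, contig19806, fell more gradually in seeds and was uneven in leaf. In toxic leaf, probe 750 read 9.66, 6.86, 5.05, 8.54 and 11.90, and in non-toxic leaf 7.39, 8.03, 10.41, 6.21 and 5.71. At seed stages I and II it read 11.00, 11.64 and 11.56, and 11.01, 11.52, 11.65 and 11.28. Stage III gave 10.52, 10.33 and 10.47, stage IV 9.61, 9.88 and 10.18, stage V 8.16, 8.62, 8.29 and 9.18, and stage VI 7.44, 6.18, 7.18 and 8.26. The stages I and II overlapped, as did V and VI, and III and IV each stood apart from their neighbours. Stage VI was 4.14 lower than stage I (SE 1.01). This SE rests in part on the leaf arrays, whose SD was 2.62 in toxic and 1.85 in non-toxic leaf (n = 5 each). Within the seed stages the SD was 0.10 to 0.86. The 2 leaf kinds spanned each other, the highest and the lowest of the 10 leaf arrays both being toxic. Probe 250 of the contig, 500 bp away, followed the same arrays. It read 8.22, 1.82, 1.85, 7.16 and 10.24 in toxic leaf and 5.11, 5.55, 8.74, 1.91 and 1.84 in non-toxic leaf, and it was not well above background on the 4 leaf arrays under 2. A flag for a probe not well above background was also set on 3 of the 4 arrays of stage VI, where it averaged 4.06 ± 1.37 (SD, n = 4). The uneven leaf levels were thus read by both bright probes of the contig.

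Contig19461, of 6'-deoxychalcone synthase, was higher in seed than in leaf, where it was also measured on every array, and returned at the brown stage. In leaf, probe 250 read 7.11, 8.77, 8.56, 7.51 and 8.87 in the toxic kind and 10.74, 6.70, 11.83, 9.21 and 8.45 in the non-toxic kind. In seeds it read 15.53, 15.33 and 15.28 at stage I, 14.46, 14.08, 13.80 and 14.63 at stage II, and 11.81, 12.54 and 11.76 at stage III. At stage IV it was at 10.07, 10.34 and 10.61. At stage V it was at 13.66, 13.33, 13.42 and 13.49, and at stage VI at 10.82, 9.63, 10.74 and 11.15. All arrays of stage V lay above all arrays of stages III, IV and VI. The level at stage V was 3.13 above stage IV (SE 0.70), and that at stage VI was 2.89 below stage V (SE 0.65). Stages IV and VI overlapped, and non-toxic leaf overlapped stages III, IV and VI. The other probe, at position 0, was well above background on 1 of 31 arrays.

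Contig13680, the other member under this enzyme, was dimmer and stayed between means of 6.86 and 8.18 in seeds, below its level in leaf. In leaf, probe 750 read 9.14, 9.27, 8.98, 9.01 and 10.02 in the toxic kind and 9.21, 9.15, 9.85, 10.56 and 9.19 in the non-toxic kind. In seeds the means were 7.63 ± 0.33 (SD, n = 3) at stage I, 7.03 ± 0.89 (n = 4) at II, 6.86 ± 0.28 (n = 3) at III, 8.18 ± 0.22 (n = 3) at IV, 7.35 ± 0.88 (n = 4) at V and 7.29 ± 0.86 (n = 4) at VI. Every leaf array lay above every seed array, of which the highest read 8.61. The wider stages were those with an array on slide 4, which read 8.28 at stage II, 8.61 at stage V and 8.56 at stage VI, and lay 1.67, 1.68 and 1.70 above the mean of slides 1 to 3. In the log2 table of the authors these offsets were 0.10, 0.01 and 0.12. Probe 250 gave means between 6.39 and 7.77 over the stages. Stage IV was its highest seed stage too, and III had its lowest mean. The part of the slide in these levels was not tested.

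The 2 readable probes of the CHI contig, contig04004, went apart. In leaf, probe 500 read 11.40, 9.64, 9.41, 10.89 and 12.68 in the toxic kind and 8.79, 9.62, 7.37, 9.73 and 13.06 in the non-toxic kind. In seeds it read 9.91, 9.60 and 9.39 at stage I, 6.33, 5.73, 5.90 and 7.75 at stage II and 4.61, 4.98 and 4.57 at stage III. At stages IV, V and VI it averaged 3.21 ± 0.40 (SD, n = 3), 2.90 ± 1.16 (n = 4) and 3.12 ± 1.54 (n = 4), and it was well above background on 1 array of each. Stages I, II and III did not overlap, and the later stages were at the limit of measurement. Slide 4 lay above the mean of slides 1 to 3 by 1.76, 2.12 and 0.42 at stages II, V and VI. The offsets were 1.63 in toxic and 2.80 in non-toxic leaf. In the log2 table of the authors these 5 offsets were 0.54, 0.16, -0.53, -0.39 and 0.66. Stage VI was 6.52 lower than stage I (SE 0.95), and 3.64 lower after normexp background correction. Probe 250, which has the other direction, was dim in all groups, with means between 4.43 and 5.35 over the seed stages and overlapping arrays between all stages. Its level at stage VI was 0.02 above that at stage I (SE 0.71).

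**Figure D2:**
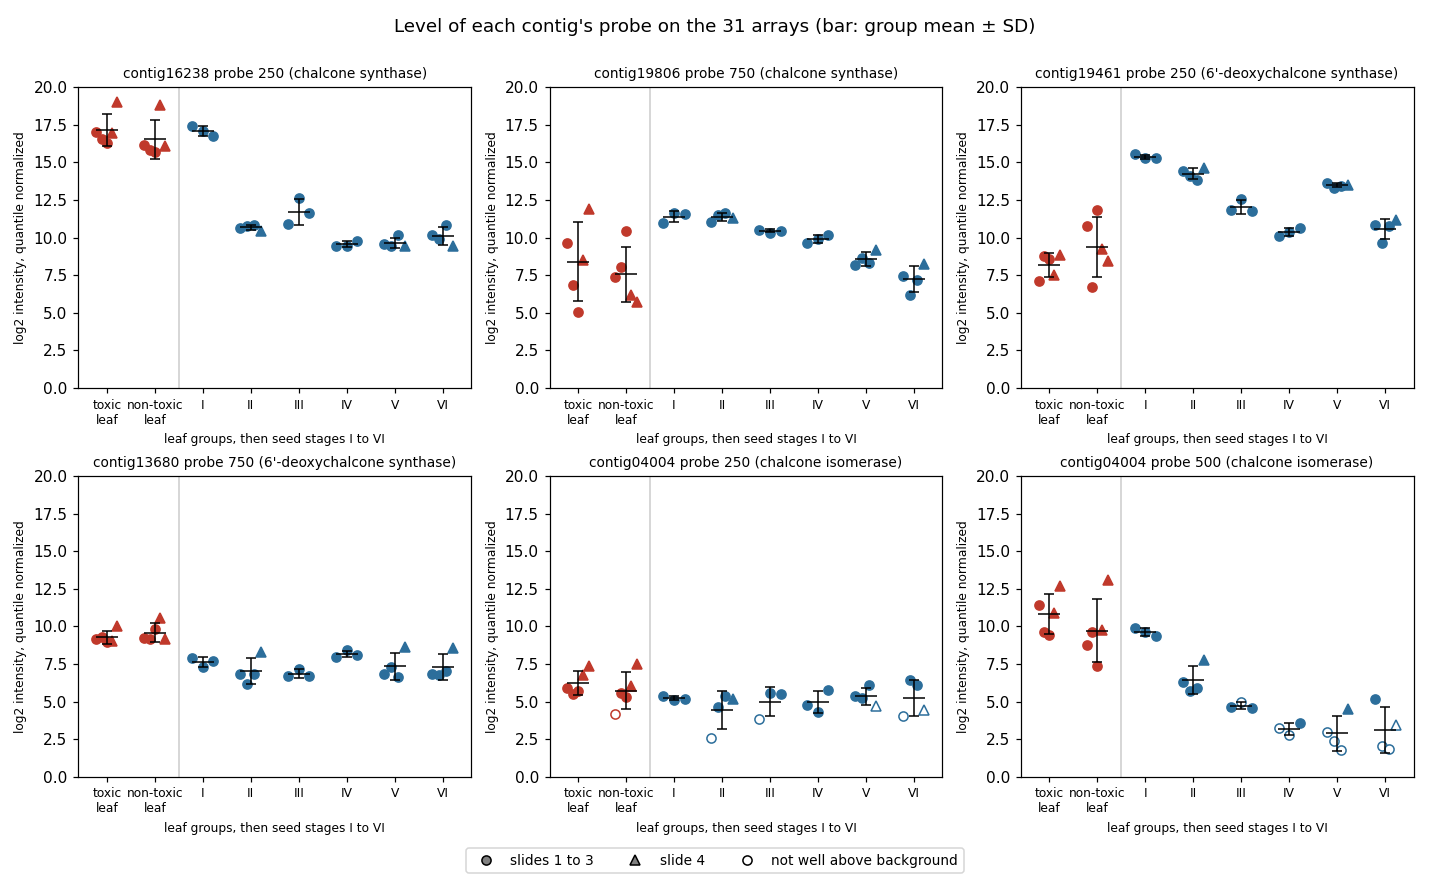
Log2 intensity of the probes given in full on each of the 31 arrays, in toxic leaf, non-toxic leaf and seed stages I to VI, with a bar for the group mean ± SD. Triangles are arrays of slide 4 and open symbols are arrays on which the probe was not well above background; contig19461 returns at stage V, and contig19806 is spread in leaf.

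Set side by side, the seed courses of the 5 contigs differed in where they turned. The highest seed stage was I in contig16238, contig19806, contig19461 and probe 500 of contig04004, and IV in contig13680. The lowest was IV in contig16238 and contig19461, VI in contig19806 and III in contig13680. By means, the next lowest stage was V in contig16238 and VI in contig19461, and IV overlapped it in both. In contig13680 the order of III and II rests on slide 4, since stage II averaged 6.61 on slides 1 to 3, below the 6.86 of stage III. In probe 500 of contig04004 the means of stages IV, V and VI were at the limit of measurement and have no order. Of the 22 probes, 4 passed the F-test over the 6 stages at the adjusted p of 1e-08 that the methods use, all of contig16238, against 5.89% of all probes, and 10 passed at 0.05, against 46.6%. The model behind this F-test shares 1 spread over all 8 groups, leaf included. Over all probes, 3407 passed at 1e-08, and between 2586 and 10266 under other scalings. The paper lists contigs of each of the enzymes followed here as differing between stages at its cut-off. The counts here therefore do not say which contigs meet the criterion in the paper's own fit. Nothing is read from these counts, since the stages chose the contigs.

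Leaf was compared with seed as the mean of both leaf groups minus the mean of the 6 stage means. Of the 22 probes, 11 were higher and 3 lower in leaf (adjusted p under 0.05, limma with Benjamini-Hochberg adjustment over all probes), against 26.7% of all probes higher and 23.1% lower. The median difference over the 22 probes was 0.73, and 0.05 over all probes. Probes of 1 contig are not independent readings, so these shares do not describe the contigs. With 1 probe for each contig, 3 of the 5 members were higher and 2 lower, where 6420 and 6248 of all 19838 contigs were. All 12 probes that were well above background throughout a group passed the test, 9 of them higher and 3 lower, where 31.6% and 31.7% of the 39474 such probes did, but that filter could be passed through the high group alone. The directions followed the contigs. The passing probes of contig16238, contig13680 and contig04004 were higher in leaf and those of contig19806 and contig19461 lower, so that the CHS contigs had opposite signs, as had those of 6'-deoxychalcone synthase.

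Contig16238 averaged 16.85 in leaf and 11.46 in seed with probe 250, a difference of 5.39 (SE 0.30) or 41.9-fold (adjusted p = 1.8e-14). Within slides 1, 2, 3 and 4 the difference was 5.24, 4.66, 4.33 and 7.93, but slide 4 holds seed stages II, V and VI alone and so lacks stage I. Against these 3 stages on every slide, a comparison chosen after the data were seen, it was 6.48, 6.17, 5.37 and 7.93. Its probes 500, 750, 1000 and 1250 differed by 3.16, 6.31, 3.69 and 5.40 in the same direction, and of the 21 seed arrays only 3 and 5 were well above background for probes 500 and 1000, whose differences became 0.82 and 1.38 after normexp background correction. Since the leaf arrays stood at the level of stage I, the difference was one from the later stages.

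Contig19806 averaged 7.97 in leaf and 9.82 in seed with probe 750, a difference of -1.85 (SE 0.51) or 3.60-fold lower (adjusted p = 0.0036). It was -1.10, -2.25, -2.16 and -1.48 within slides 1 to 4, and -0.34, -1.33, -1.31 and -1.48 against stages II, V and VI alone. Of the 10 leaf arrays, 1 reached the level of stages I and II, at 11.90, and the next, at 10.41, lay below all arrays of these stages. Toxic and non-toxic leaf averaged 8.40 and 7.55, between stage V (8.56) and stage VI (7.26), and overlapped both. By means, the difference was thus one from stages I to IV, and leaf was not lower than stage VI. Probe 250 of contig19806 differed by -3.37 (SE 0.77), and by -1.88 after normexp correction.

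Contig19461 averaged 8.78 in leaf and 12.68 in seed, a difference of -3.90 (SE 0.35) or 14.9-fold lower (adjusted p = 3.7e-10). Within slides it ran between -4.81 and -2.41. Contig13680 differed the other way, at 9.44 in leaf and 7.39 in seed with probe 750, by 2.05 (SE 0.24) or 4.14-fold (adjusted p = 5.9e-08). Its difference was 1.99, 2.03 and 2.25 within slides 1 to 3 and 1.21 within slide 4, and 2.35, 2.47, 2.58 and 1.21 against stages II, V and VI alone. Probe 250 of this contig was higher in leaf by 1.67 (SE 0.16). Probes 500 and 1250 of contig13680 passed at differences of 0.88 and 0.81 but were well above background on 5 and 1 of the 10 leaf arrays, and probe 500 no longer passed without slide 4 (0.67) or after normexp correction (0.15).

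In contig04004, probe 500 averaged 10.26 in leaf and 5.002 in seed, a difference of 5.26 (SE 0.48) or 38.2-fold (adjusted p = 4.3e-10). Within slides it was 4.72, 5.04, 3.88 and 6.36, and against stages II, V and VI alone, as on slide 4, it was 5.27, 6.25, 5.22 and 6.36. As only 12 of 21 seed arrays were well above background, its size depends on how dim spots are treated, and it was 3.41 after normexp correction. Probe 250 of contig04004 averaged 5.98 in leaf and 5.04 in seed, and its difference of 0.95 (SE 0.36, adjusted p = 0.031) was lost without slide 4. It was 2.14 within slide 4, between -0.17 and 0.72 within the others (between -0.35 and 1.07 against stages II, V and VI alone), 0.41 after normexp correction, and 0.29 (SE 0.40, adjusted p = 0.58) in the fit without slide 4.

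**Figure D3:**
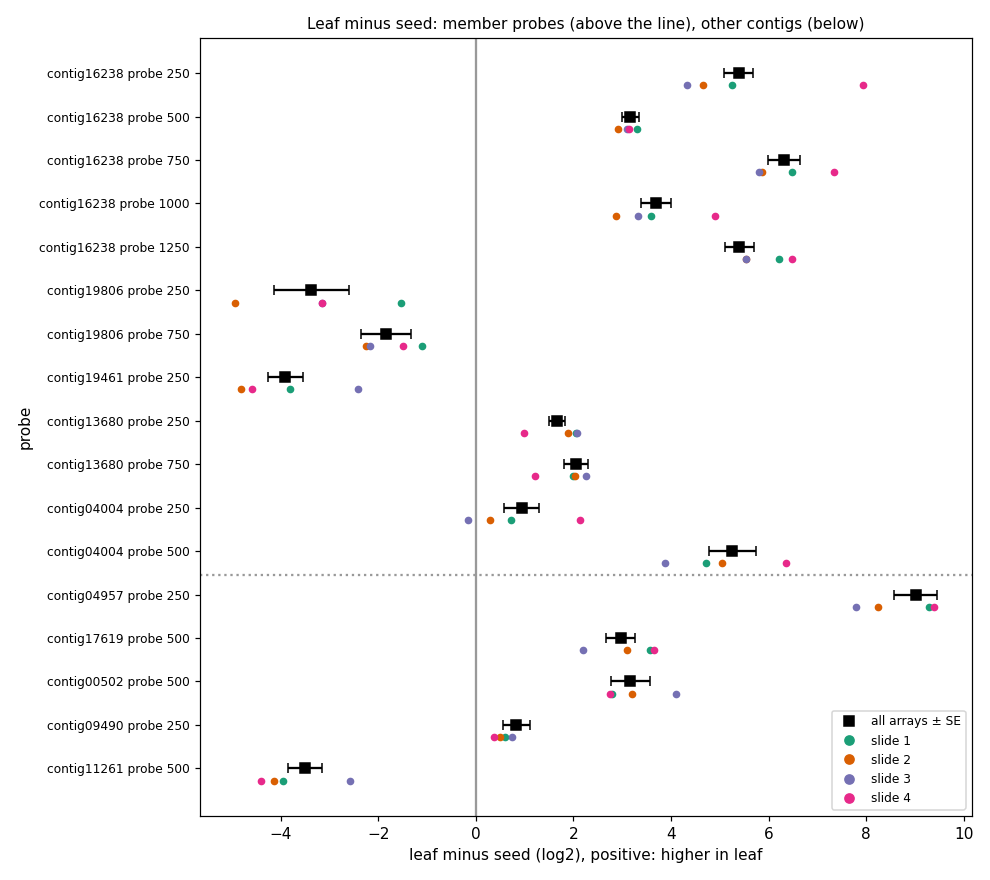
Difference of leaf minus seed (log2, horizontal axis, positive where leaf is higher) for the 12 member probes well above background on every array of a group, and for the 5 other contigs under the same enzymes, which stand under the dotted line. Squares are the fit over all arrays ± SE and dots the values within each slide, of which slide 4 holds seed stages II, V and VI alone; contig19806, contig19461 and contig11261 lie below 0 on every slide.

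Between toxic and non-toxic leaf, 0 of the 22 probes passed the test (limma, adjusted p under 0.05), against 0.00519% of all probes, which were 3 probes. At an unadjusted p under 0.05 there was 1 member probe, against 3.87% of all probes. This was probe 250 of contig19461, at 8.16 ± 0.80 in toxic and 9.39 ± 2.00 in non-toxic leaf (SD, n = 5 each), a difference of -1.22 with a 95% interval of -2.42 to -0.03. Its limma p of 0.0445 became 1 after adjustment over all probes. On slides 1 to 4 it was -3.63, 2.08, -3.27 and -0.65, so its sign was not the same on all slides. For contig16238 the difference was 0.64 (interval -0.37 to 1.64), for contig19806 0.85 (-0.87 to 2.58), for contig13680 -0.31 (-1.13 to 0.51) and for probe 500 of contig04004 1.09 (-0.53 to 2.71). All of these intervals, that of contig19461 included, rest on 1 spread shared by all 8 groups. For contig16238, contig19806 and contig19461 the leaf arrays were more spread than any seed stage, so there the intervals understate the leaf spread. Even so, the intervals leave room for differences of several fold in contig19806 and contig04004. Single arrays moved the values by over 1.5 times. Without each array in turn, contig16238 ran between 0.18 (without toxic leaf replicate 5) and 1.23 (without non-toxic leaf replicate 4), and contig19461 between -1.90 (without non-toxic leaf replicate 2) and -0.61 (without non-toxic leaf replicate 3). Contig13680 ran between -0.49 (without toxic leaf replicate 5) and -0.067 (without non-toxic leaf replicate 4), and probe 500 of contig04004 between 0.51 (without non-toxic leaf replicate 3) and 1.92 (without non-toxic leaf replicate 5). The direction was kept in these 4. The difference of contig19806 was 2.27, -1.16, -5.36 and 4.26 on slides 1 to 4. Contig16238 was higher in toxic leaf on each slide, by 0.87, 0.72, 0.56 and 0.52. On slides 1 to 3 alone, 694 probes of the array passed. Among them was its dim sense probe 500, with a difference of 0.68 (SE 0.15, adjusted p = 0.035, limma), while on all slides that difference was 0.50 (SE 0.28). The other probes of contig16238 did not pass on slides 1 to 3, with an adjusted p of 0.40 or more (limma).

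The 5 other contigs listed under the same enzymes were read by the same choice of probe. As a difference of stage VI minus stage I they moved by -4.63 (contig04957) and -5.51 (contig17619) under CHS, and by -4.14 (contig00502), -0.69 (contig09490) and -4.33 (contig11261) under 6'-deoxychalcone synthase. The members at the ends of these lists moved by -6.98 (contig16238) and -4.14 (contig19806), and by -4.79 (contig19461) and -0.34 (contig13680). Contig04957, listed as CHS, read 14.45, 13.53, 13.59, 14.92 and 16.50 in toxic and 13.34, 13.62, 12.47, 14.50 and 16.26 in non-toxic leaf. It averaged 8.67 ± 0.46 (SD, n = 3) at seed stage I and between 4.04 and 5.11 at stages II to VI. Leaf was higher by 9.02 (SE 0.43, adjusted p = 1.1e-15, limma), and by 7.27 after normexp correction. The leaf arrays lay above all seed arrays, unlike those of contig16238. Contig17619, also CHS, averaged 9.59 in leaf and 6.62 in seed, a difference of 2.97 (SE 0.30), or 2.02 after normexp correction. In seeds it declined by stage with 9.07, 8.91, 8.17, 5.51, 4.53 and 3.55 at stages I to VI, and no array of stage VI was well above background. All 4 CHS contigs thus had their highest seed mean at stage I, whereas 3 were higher and 1, contig19806, lower in leaf. By annotation, contig04957 and contig17619 were also listed under a synthase of biotin formation.

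Among the contigs of 6'-deoxychalcone synthase, contig11261 had the course of contig19461. Its means were 11.90, 11.34, 8.54, 7.33, 10.44 and 7.57 at stages I to VI, so that it too returned at stage V. In toxic leaf it averaged 5.39 ± 1.14 and in non-toxic leaf 6.66 ± 1.35 (SD, n = 5 each). It was lower in leaf by 3.49 on the log2 scale (difference -3.49, SE 0.35, adjusted p = 2.1e-09, limma). After normexp correction the difference was -2.51, and 8 of the 10 leaf arrays were well above background. The toxic minus non-toxic difference was -1.27, and on slides 1 to 4 it was -2.41, 1.24, -2.51 and -1.34, with the signs of contig19461. Whether both contigs belong to one gene or to similar copies that share signal was not tested. Contig00502, annotated as an oxidoreductase of the aldo-keto family, averaged 6.59 in leaf and 3.43 in seed, a difference of 3.17 (SE 0.40, adjusted p = 1.6e-07), with 6 of 21 seed arrays well above background, all at stages I and II, and the difference was 1.15 after normexp correction. Contig09490, also listed as a codeinone reductase, was higher in leaf by 0.83 (SE 0.28, adjusted p = 0.014, limma), and by 0.46 with slide as a block (adjusted p = 0.032) and 0.43 after normexp correction (adjusted p = 0.015).

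**Figure D4:**
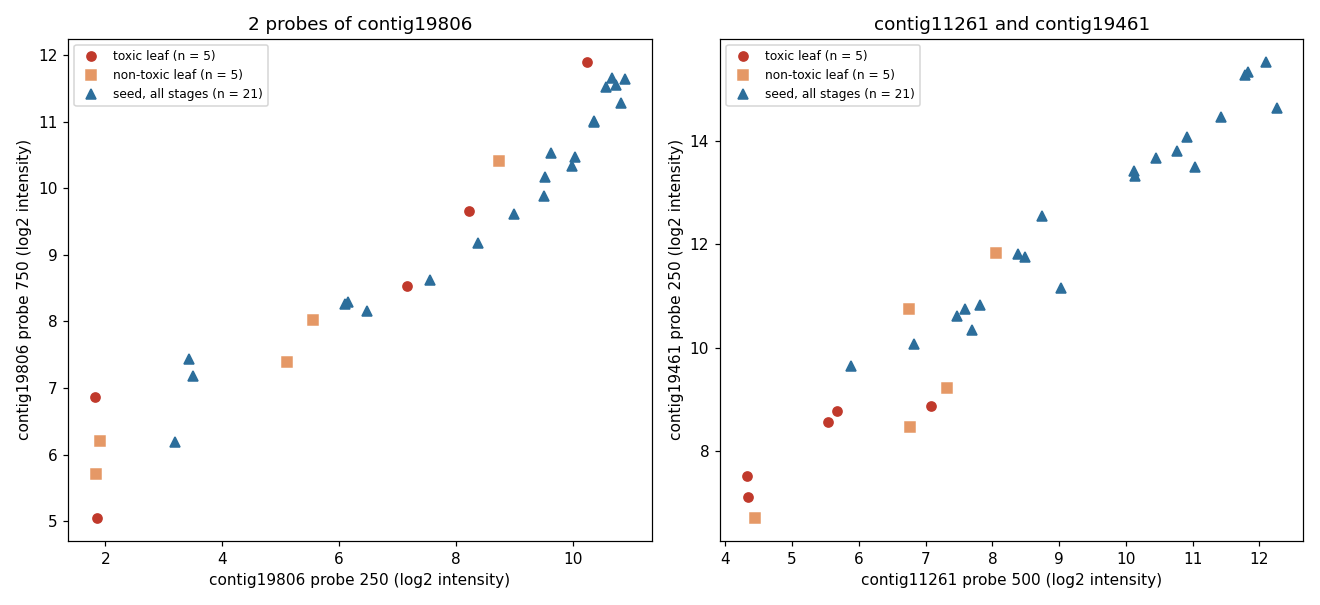
Log2 intensity on each of the 31 arrays of probe 750 against probe 250 of contig19806 (left), and of contig19461 against contig11261 (right), for toxic leaf, non-toxic leaf and seed arrays. In both panels leaf and seed arrays lie along one band, and the toxic and non-toxic arrays mix.

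The pathway around these enzymes was read from 135 other contigs of phenylpropanoid and flavonoid enzymes, with 1 probe each. In leaf, 54 were higher and 45 lower (adjusted p under 0.05, limma), with a median difference of 0.08. With the same choice of probe over all 19838 contigs, 6420 were higher and 6248 lower, with a median of -0.02. Upstream of CHS, the single cinnamate 4-hydroxylase contig was higher in leaf, as were 5 of 7 contigs of 4-coumarate-CoA ligase with 0 lower, while the pair of phenylalanine ammonia-lyase contigs split. Downstream of CHI, all 3 flavonoid 3'-monooxygenase contigs and the single contig of anthocyanidin reductase were higher in leaf. The single leucoanthocyanidin reductase contig, contig15354, also passed (3.55 in leaf, 2.04 in seed), but was well above background on 1 of 10 leaf and 0 of 21 seed arrays, so that this call compares signals near background. For flavanone 3-dioxygenase 2 of 7 were higher and 3 lower, for flavonol synthase 11 of 25 and 10, and for dihydrokaempferol 4-reductase 10 of 30 and 9. Caffeoyl-CoA O-methyltransferase, which serves lignin formation, had 1 of 14 higher and 9 lower. By measured means, the highest differences toward leaf were those of contig12700 (leucocyanidin oxygenase, which forms anthocyanidins) at 6.21 (SE 0.31) and contig00198 (flavanone 3-dioxygenase) at 5.63 (SE 0.31). They were well above background on 13 and 19 of the 21 seed arrays, so that the size for contig12700 rests in part on dim spots. Toward seed, by measured means, contig12199 and contig21555 came first, both caffeoyl-CoA O-methyltransferases, which were not well above background on any leaf array. They were at least 48.1-fold and at least 21.8-fold lower in leaf (adjusted p = 1.2e-23 and 1.2e-18), where the dim side is bounded by the lowest signal well above background on each array. On this bounded scale contig12686 (flavonol synthase, at least 47.1-fold) and contig11569 (caffeoyl-CoA O-methyltransferase, at least 39.5-fold) lay above contig21555. None (0) of the 135 contigs passed between toxic and non-toxic leaf (limma), with 14 at an unadjusted p under 0.05, against 803 of all 19838 contigs.

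The contigs most like each member were found by Pearson's r over the 8 group means, among probes well above background on every array of a group. With this few points high values are common, and all points share the same arrays. For probe 500 of contig04004 the first was contig12700, annotated as an anthocyanidin synthase, with r = 0.999 over 8 groups. Its means were 12.36 in toxic leaf and 11.27 in non-toxic leaf, and 10.93 at stage I and 3.45 at stage VI. The next were contig01268 and contig07225 (r = 0.993 both), which are not in the pathway list. Within that list contig05713 (flavonoid 3'-monooxygenase, r = 0.984) and contig00198 (flavanone 3-dioxygenase, r = 0.980) followed contig12700. Contig16238 was most like contig10834, contig08416 and contig12673 (r = 0.997, 0.997 and 0.992), of which contig12673 was annotated as a dihydrofolate reductase. Within the pathway list it was most like contig05539 (anthocyanidin reductase, r = 0.971). Contig19461 was most like contig11261 (r = 0.995), followed by contig08809 and contig04182 (r = 0.974 both). Contig19806 was most like contig21888, contig14029 and contig20071 (r = 0.983 each), and within the pathway list contig12686 (flavonol synthase, r = 0.924). Contig13680 was most like contig19531, contig03673 and contig07200 (r between 0.986 and 0.988), and probe 250 of contig04004 most like contig08034, contig01528 and contig07894 (r between 0.947 and 0.959). Of the 3 contigs most like each member, only contig12700 and contig12673 had an annotation read here. Contig11261 was listed under 6'-deoxychalcone synthase.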

How the data were processed

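Labelled cRNA of 21 seed and 10 leaf samples was hybridized to one-colour arrays. The authors deposited scanner output, whose intensity values are background-subtracted and spatially detrended by Agilent Feature Extraction 10.5.1.1 (submitters' processing notes) and not normalized between arrays. Other deposited columns hold flags for signals well above background, saturated spots and outliers. They also deposited a table of normalized log2 values, in which leaf arrays had medians of 5.44 to 5.47 and seed arrays of 5.62 to 5.68, so it was used only as an alternative.

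Control and outlier spots were left out, and the 31 arrays were treated together, choices that the methods do not state. Following the methods, replicate spots were averaged, values log2-transformed, 848 missing values imputed from the 10 nearest probes (a number not given there), and arrays quantile normalized. A limma 3.58.1 model (R 4.3.3) with 8 group means and no slide term was fitted to 57842 probes and adjusted by Benjamini-Hochberg. The model was tested on simulated data with independent normal noise, the same spread in all groups and no slide effect, unlike these arrays. A probe counted as sense where its name gives a position that is a multiple of 500, which matched all 1216 probes with a stated direction. Enzymes were taken from the study's pathway table. The named contigs were all members, each by its probe with the highest seed mean, the other contigs under the same enzymes, the pathway contigs with the 2 lowest and 2 highest leaf differences, and the 3 contigs most like each member. Members and lists were chosen with earlier results of these data known. The seed lipid contigs among the tissue markers were drawn by the study from these arrays.

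Replicates were numbered in accession order. The labels do not say that samples of a group came from separate plants, so p-values measure the spread between these samples only. Their number limits precision. Leaf titles on slide 4 carry code numbers that also occur in titles of the same kind on slides 1 to 3. If these mark the same plants, the leaf samples are not all independent, which was not tested. Deviations from the group mean correlated within a slide with a mean r of 0.19, 0.0953, 0.254 and 0.59 on slides 1 to 4, and slide as a block was an alternative. The others were 75th percentile scaling, normexp background correction (offset 50), the authors' table, slides 1 to 3 alone, leaving out dim probes or each array, seed or leaf arrays alone, the mean of a contig's probes, and other thresholds. The median difference of leaf minus seed over all probes was 0.05 with quantile normalization, -0.2 with 75th percentile scaling, 0.01 with normexp and 0.169 in the authors' table, and differences are to be read against these.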

Additional observations from a re-analysis of the deposited data

Results flagged for a closer look

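Among the groups of 4 or 5 arrays, the highest or lowest array stood apart from the rest of its group in 4 of 30 cases (its gap to the next array, as a share of the range of the group, was over Dixon's critical value), where about 1 in 20 is flagged by chance. Contig16238 probe 250 read 19.00 in toxic leaf replicate 5, while the other toxic arrays ran between 16.28 and 17.02. It read 18.82 in non-toxic leaf replicate 4, while the others ran between 15.72 and 16.15. Contig13680 probe 750 read 8.56 in stage VI replicate 4, with the others between 6.74 and 7.02, and 10.02 in toxic leaf replicate 5, with the others between 8.98 and 9.27. All 4 values came from arrays on slide 4.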

How the results depend on the processing

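The counts of leaf calls were 11 higher and 3 lower with all arrays, and without each array in turn they were 10 to 12 and 3 to 3. At an adjusted p of 1e-08 they were 7 and 1. The count between toxic and non-toxic leaf was 0 without each array in turn and in both directions, but 1 higher with the arrays of slides 1 to 3. The count past the stage F-test of 4 became 10 at an adjusted p of 0.05, and without each array in turn it was 1 to 4, with 1 without each of the stage I arrays. With slide as a replicate block it was 4, and the leaf counts were 10 and 3.

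Among single probes, the leaf minus seed difference of contig04004 probe 250 (0.95) lost its call with 75th percentile scaling (0.57, adjusted p = 0.22), slide as a block (0.77, 0.053) and slides 1 to 3 (0.29, 0.58). It also lost it without stage III replicate 1 (0.85, 0.05), toxic leaf replicates 4 (0.88, 0.058) and 5 (0.81, 0.076), or non-toxic leaf replicates 4 (0.90, 0.055) and 5 (0.72, 0.092). The toxic minus non-toxic difference of contig19806 probe 750 (0.85) reversed with slides 1 to 3 (-1.32), and without each array in turn it ran between -0.024 (without toxic leaf replicate 5) and 1.69. The other leaf minus seed and toxic minus non-toxic differences of the probes given in full kept their call and direction under the alternatives run. Among the remaining member probes, contig13680 probe 500 lost its leaf call (0.88) with slides 1 to 3 (0.67) and after normexp correction (0.15). With slides 1 to 3 the toxic minus non-toxic difference of contig19806 probe 250 (1.23) was -2.59, and contig16238 probe 500 passed at 0.68. The near-zero difference of stage VI minus I of contig04004 probe 250 (0.02) was -0.07 with 75th percentile scaling, -0.01 after normexp, -0.15 in the authors' table and -0.14 with slide as a block. With 75th percentile scaling 40.1% of all leaf calls were higher in leaf, against 53.6%, and 9 member probes were higher. As the mean of its 2 readable probes, contig04004 had a difference of -3.25 between stages VI and I. These probes have opposite directions and went apart (-6.52 for probe 500, 0.02 for probe 250), so this mean describes neither of them. Dim spots limit contig04004 and the sense probes.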
